A study of Rattus norvegicus with 12 samples.

Results

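Calcium entry, release and pump genes were taken as all genes with a single symbol in the annotation of the array that begins with Trpc, Trpm, Trpv, Cacn, Atp2a, Atp2b, Ryr, Orai or Stim, or with Itpr followed by a digit. There were 60 such genes among 14503 genes with a single symbol, each measured by 1 probe set. They comprised 16 Trp channel genes, 3 Orai and 2 Stim genes, 24 subunits of voltage-gated calcium channels, 3 Itpr and 3 Ryr genes, 7 calcium pumps, and Trpc4ap and Stimate, which carry the prefix but encode accessory proteins.

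The RNA came from endothelial cells (ECs) of Wistar rats, which had been sorted from the ductus arteriosus (DA) and from the aorta by FACS with CD31 as the positive and CD45 as the negative marker. The N group were neonates taken 30 min after cesarean delivery, once breathing had begun, and the F group were fetuses of gestational day 21 that had not breathed. DA and aortic ECs of each stage gave 4 groups with 3 Rat Gene 1.0 ST arrays each, 12 arrays in all, and each array held RNA pooled from many litters. A replicate is therefore a pool, and the p-values measure the spread between pools. The authors counted litters per stage and not per vessel, so DA and aortic pools may share litters. The main fit did not pair them.

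The DA is the fetal vessel that joins the pulmonary artery to the aorta and closes after birth. In ECs, agonists that activate phospholipase C produce inositol trisphosphate, which opens the Itpr receptors and releases calcium from the endoplasmic reticulum. Emptying of that store is sensed by the Stim proteins, which open the Orai channels of the plasma membrane, Trp channels add further cation entry, and the calcium is removed by SERCA pumps (Atp2a) into the store and by plasma-membrane pumps (Atp2b) out of the cell. A rise in endothelial calcium is a known trigger of nitric oxide and prostacyclin release, whereas voltage-gated calcium channels are known chiefly from muscle and nerve.

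Array medians ranged between 5.63 and 5.76 (log2). A gene was tested when its log2 signal, averaged over all 12 arrays, was at or above the average of the lys spike, a bacterial transcript added as a control (4.44). The spike itself differed between the replicate numbers, at 4.53 to 6.17 on the arrays of replicate 1, 4.16 to 4.78 on those of replicate 2 and 3.41 to 3.53 on those of replicate 3. It also differed between the vessels, most in replicate 1, at 5.78 in DA and 5.18 in aortic ECs of N and 6.17 and 4.53 of F. At the same number and stage it was higher in DA ECs, except in replicate 3 of F (3.41 against 3.53). Of the 60 genes 46 were tested, and the other 14 had means between 3.21 and 4.42. Cacna1e (4.50) was just above the limit and Trpc6 (4.42) just below it.

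The endothelial markers were bright in every group, and Pecam1, Cdh5, Tek and Kdr lay above the spike on all 12 arrays. Of 12 tested endothelial markers none was higher in DA than in aortic ECs and 2 were lower (Flt1 and Cldn5), with a summed linear signal of 24146 to 25830 in DA and 25259 to 27490 in aortic ECs. Smooth muscle markers moved with the vessel. Of 12 tested, 5 were higher in DA ECs (Acta2, Tagln, Actg2, Des and Myl9) and 2 were lower (Myocd and Mylk). Their summed linear signal was 3763 to 4807 in DA and 2709 to 3028 in aortic ECs of the N group, and 3695 to 3848 in DA and 2570 to 2969 in aortic ECs of the F group. Myh11 and Cnn1 had log2 fold changes of 0.42 and 0.38 (adjusted p = 0.0726 and 0.104 in limma). Of the markers of other cells, 1 of 7 tested fibroblast genes was higher and 2 were lower, 1 of 7 cardiomyocyte genes was lower, 1 of 5 neuron, Schwann cell and paraganglion genes (Stmn2, 0.91 ± 0.12 on the log2 scale) and 1 of 3 mesothelial genes were higher, and none of 3 leukocyte or 3 erythroid genes passed. With the replicate block 7 smooth muscle markers were higher and 2 lower, 3 fibroblast markers were higher and 2 lower, 2 cardiomyocyte markers and 1 leukocyte marker were lower and 1 mesothelial marker was higher and 1 lower, and the other counts were the same. Among all probe sets tested, 3.19% were higher and 4.93% lower over both stages, and 7.71% and 10.1% with the replicate block. Ptprc, which encodes CD45, was below the limit for testing. The part of such cells in the differences described here was not tested.

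The comparison of DA with aortic ECs asked which calcium genes differ between both vessels. DA ECs had more RNA of the Trp channel Trpc5 and of the channel subunit Cacnb3, and less of the pumps Atp2a3 and Atp2b4, of the Trp channel Trpc1 and of the store-operated channel Orai1. These were the 6 of 46 tested genes that passed in limma over both stages at an adjusted p under 0.05, 2 higher (4.35%) and 4 lower (8.7%), against 3.19% higher and 4.93% lower among all 18690 probe sets tested. In the N group 2 were higher and 2 lower, against 1.26% and 1.87% of all probe sets, and in the F group again 2 were higher and 2 lower, against 1.49% and 2.28%. Over both stages the arrays of the vessels did not overlap in 3 genes that were higher in DA ECs, against 2.91% of all probe sets, and in 4 that were lower, against 4.07%. In each stage the 4 genes that passed were Trpc5, Cacnb3, Atp2a3 and Atp2b4. A log2 fold change here is DA minus aorta, or N minus F, the value after ± is its standard error (SE) in the fit, and signals of different probe sets are not compared as RNA levels. The median log2 fold change over both stages was -0.04 in the 46 genes and 0.00 in all probe sets tested, and the SD was 0.45 in the 46 genes and 0.28 in all probe sets tested.

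Arrays with the same replicate number deviated together, so the number was also fitted as a block. That fit called 4 genes higher and 10 lower over both stages, against 7.71% and 10.1% of all probe sets. In the N group it called 2 higher and 4 lower (2.99% and 4.28% of all probe sets) and in the F group 3 higher and 5 lower (3.94% and 6.5%). Those higher over both stages and in F include Cacna1c, which reached the limit for testing only through the DA arrays. In bulk RNA, fewer cells of a type and less RNA per cell cannot be told apart.

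**Figure D1:**
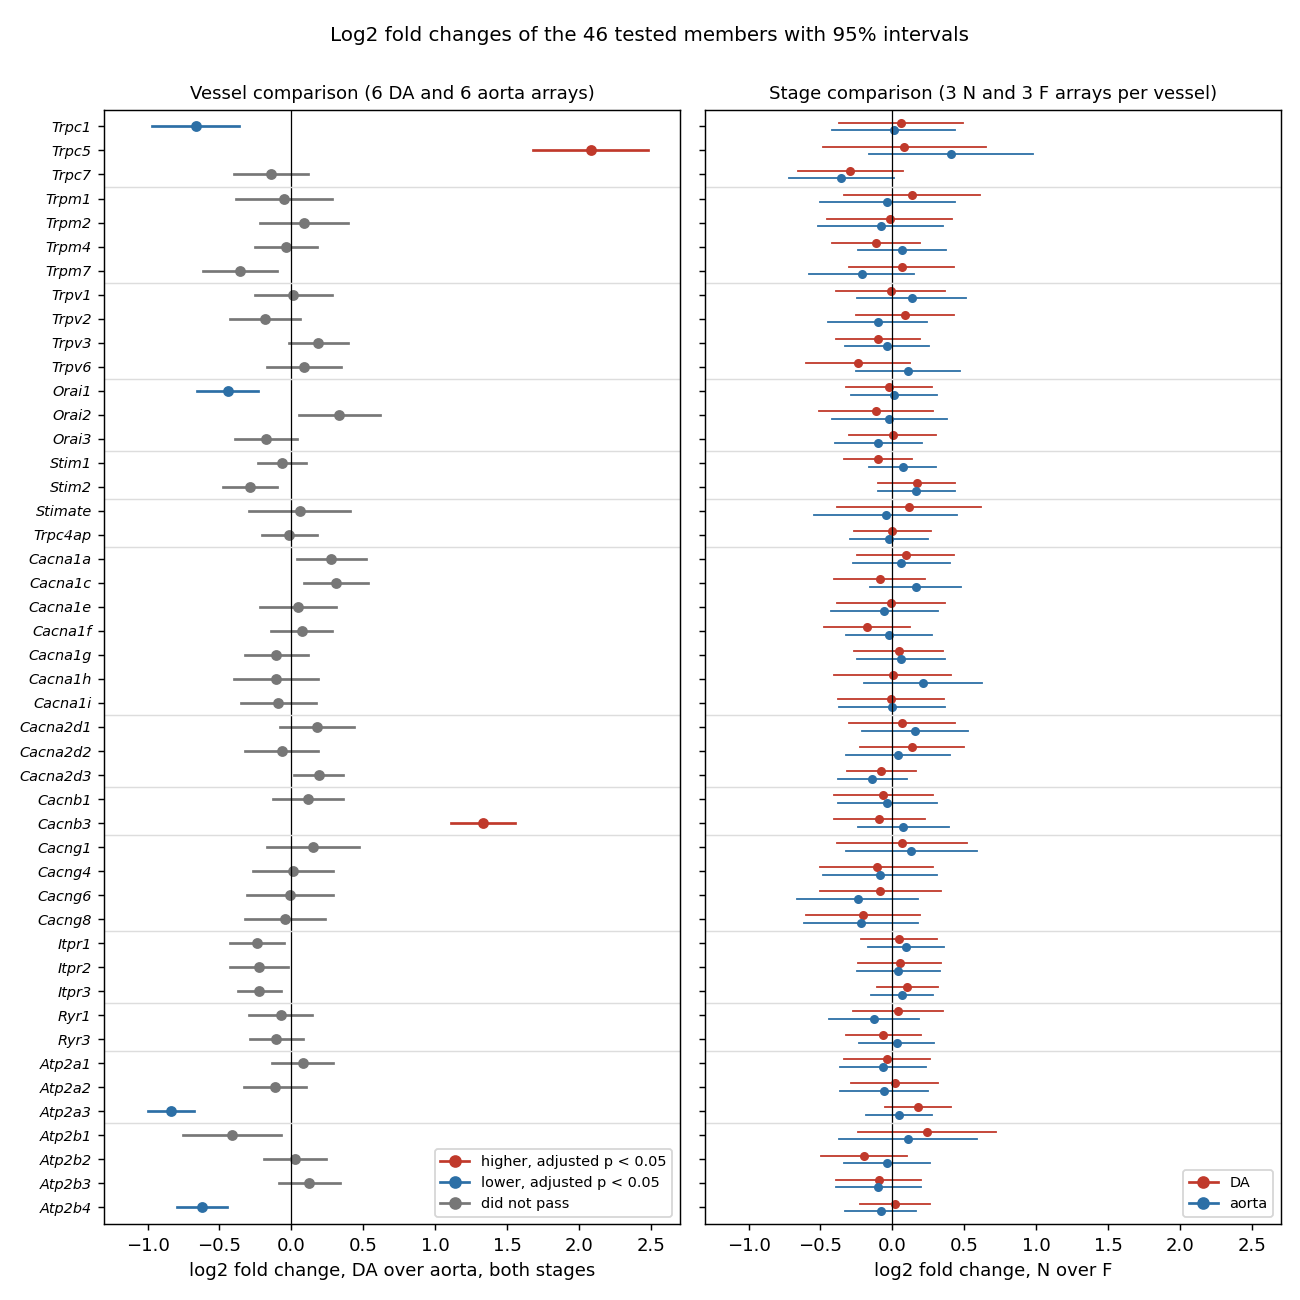
Log2 fold changes of the 46 tested genes with 95% intervals from limma, ordered by family. The left panel shows DA over aorta over both stages (6 and 6 arrays), where Trpc5 and Cacnb3 lie above 1 and Atp2a3, Trpc1, Atp2b4 and Orai1 below 0, and the right panel N over F in DA and in aortic ECs (3 and 3 arrays each), where none of the 46 genes passed.

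Upstream sequences are shown for the 4 genes that passed in both stages. Each run is the 250 bases before 1 RefSeq transcript start of the gene (rat build GRCr8), 5′ to 3′ on the strand of the gene. For Trpc5 this start is the upstream end of the annotated gene span, whereas it lies 942 bases inside the span for Atp2a3, 2741 bases inside for Cacnb3 and 48513 bases inside for Atp2b4, where the span begins further upstream. Where the RNA of these ECs begins was not measured. Capitals mark matches on either strand to 6 short motifs, namely a TATA box (TATAAA), a box of the letters CCAAT, a GC box as bound by Sp1 (GGGCGG), and the core letters of sites for ETS factors (CCGGAA), for those of the Gata family (AGATAA) and for NFAT (TGGAAA).
Trpc5 promoter, chrX:113027639-113027888, minus strand: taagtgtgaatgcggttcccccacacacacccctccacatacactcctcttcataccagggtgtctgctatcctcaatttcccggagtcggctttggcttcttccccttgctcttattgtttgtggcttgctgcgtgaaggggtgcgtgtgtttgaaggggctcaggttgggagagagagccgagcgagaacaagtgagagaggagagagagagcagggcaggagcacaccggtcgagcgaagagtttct
Cacnb3 promoter, chr7:131666301-131666550, plus strand: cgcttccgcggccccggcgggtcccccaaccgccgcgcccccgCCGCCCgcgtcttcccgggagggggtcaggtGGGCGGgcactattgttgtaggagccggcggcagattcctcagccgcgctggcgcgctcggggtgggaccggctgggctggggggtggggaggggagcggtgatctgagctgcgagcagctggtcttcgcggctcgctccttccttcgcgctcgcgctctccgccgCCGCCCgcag
Atp2a3 promoter, chr10:58080402-58080651, plus strand: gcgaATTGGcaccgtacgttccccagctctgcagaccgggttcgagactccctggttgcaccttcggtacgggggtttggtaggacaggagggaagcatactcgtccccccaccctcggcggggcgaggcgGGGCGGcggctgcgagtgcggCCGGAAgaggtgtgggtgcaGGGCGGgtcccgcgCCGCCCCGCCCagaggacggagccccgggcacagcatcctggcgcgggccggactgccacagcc
Atp2b4 promoter, chr13:47758877-47759126, minus strand: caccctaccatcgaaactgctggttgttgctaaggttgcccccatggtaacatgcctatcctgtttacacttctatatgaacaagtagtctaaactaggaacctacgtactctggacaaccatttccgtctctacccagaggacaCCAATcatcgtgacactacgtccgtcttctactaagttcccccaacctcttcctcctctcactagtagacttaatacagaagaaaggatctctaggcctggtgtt
Cacnb3 and Atp2a3, which moved in opposite directions, both had GC-box letters, with 3 matches in Cacnb3 and 4 in Atp2a3, of which 2 overlapped by 1 base. Atp2a3 also had 1 CCAAT match and 1 ETS match, Atp2b4 had 1 CCAAT match, and Trpc5 matched none of the 6 motifs in this window. Among 33469 such RefSeq windows of the same length, GGGCGG was found in 30.5%, CCAAT in 34%, TGGAAA in 19.7%, TATAAA in 12.9%, CCGGAA in 12.6% and AGATAA in 10.3%. Of the 60 genes 49 had a sequence in the table, of which 28 held GGGCGG, 17 CCAAT, 4 TGGAAA, 2 TATAAA, 2 CCGGAA and 3 AGATAA. The 250 bases held 35 CpG dinucleotides in Cacnb3, 27 in Atp2a3, 10 in Trpc5 and 6 in Atp2b4, against a median of 5 over all windows. A match is a match of letters, and binding was not measured.

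Among the entry channels, Trpc5 had the largest difference of the 46 genes. It encodes a calcium-permeable cation channel that opens downstream of phospholipase C-coupled receptors. Log2 signals of Trpc5 (probe set 10932726) were 8.05, 7.98 and 7.75 in DA and 6.28, 5.95 and 5.80 in aortic ECs of the N group, and 7.73, 7.99 and 7.82 in DA and 6.20, 5.72 and 4.89 in aortic ECs of the F group. The lowest DA array lay above the highest aortic array, and the spread was wider among the aortic arrays of the F group than in the other groups. The log2 fold change was 1.92 ± 0.26 in N (3.78-fold, limma adjusted p = 0.00105) and 2.24 ± 0.26 in F (4.73-fold, adjusted p = 0.000281). Over both stages it was 2.08 ± 0.18, or 4.23-fold, with a 95% interval of 1.68 to 2.48.

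Trpc1 moved the other way. It encodes a Trp subunit that is known to assemble with Trpc5 into mixed channels. Log2 signals of Trpc1 (probe set 10919339) were 7.15, 6.74 and 6.44 in DA and 7.53, 7.39 and 7.32 in aortic ECs of the N group, and 6.60, 6.86 and 6.68 in DA and 7.59, 7.63 and 7.0 in aortic ECs of the F group. Within each stage all DA arrays were below all aortic arrays, whereas across stages replicate 1 of the DA in N overlapped with replicate 3 of the aorta in F. Over both stages its log2 fold change was -0.67 ± 0.14, which is 1.59-fold lower in DA ECs (limma adjusted p = 0.00967). In the single stages it was -0.64 in N (adjusted p = 0.144) and -0.69 in F (adjusted p = 0.0878), and with the replicate block it passed in both (0.0205 and 0.0108). Without replicate 1 of the DA in N it also passed in N (0.0434) and in F (0.0471), and without replicate 3 of the aorta in F it passed in F (0.0262).

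The other Trpc genes were close to the spike or below it. Trpc7 was tested and did not pass over both stages (-0.14 ± 0.12, adjusted p = 0.652), and Trpc4 and Trpc6 lay below the limit for testing. Trpc6 encodes a channel opened by diacylglycerol. Log2 signals of Trpc6 were 4.53, 4.04 and 3.97 in DA and 4.71, 4.86 and 4.91 in aortic ECs of the N group, and 4.06, 3.62 and 4.30 in DA and 4.79, 4.76 and 4.44 in aortic ECs of the F group. All 6 DA arrays were below their aortic arrays of the same number. With no limit on dim probe sets its log2 fold change over both stages was -0.66 ± 0.14, with an adjusted p of 0.0122 in limma.

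Of the Trpm and Trpv genes, 8 of 11 were tested and none passed over both stages. Trpm7, whose probe set had the highest mean of the Trpm genes, encodes a channel fused to a kinase that passes magnesium and calcium. Log2 signals of Trpm7 were 8.13, 7.91 and 7.43 in DA and 8.18, 8.05 and 7.91 in aortic ECs of the N group, and 7.73, 7.94 and 7.60 in DA and 8.29, 8.26 and 8.22 in aortic ECs of the F group. The groups overlapped in the N group but not in the F group. The log2 fold change over both stages was -0.36 ± 0.12 (limma adjusted p = 0.0971, or 0.014 with the replicate block). Trpm4, a cation channel that is opened by calcium but does not conduct it, had a log2 fold change of -0.04 ± 0.10 and an adjusted p of 0.928. Trpv2, with the highest mean of the Trpv genes, had log2 signals of 4.86 to 5.41 in DA and 4.98 to 5.43 in aortic ECs and did not pass (-0.18 ± 0.11, adjusted p = 0.458).

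**Figure D2:**
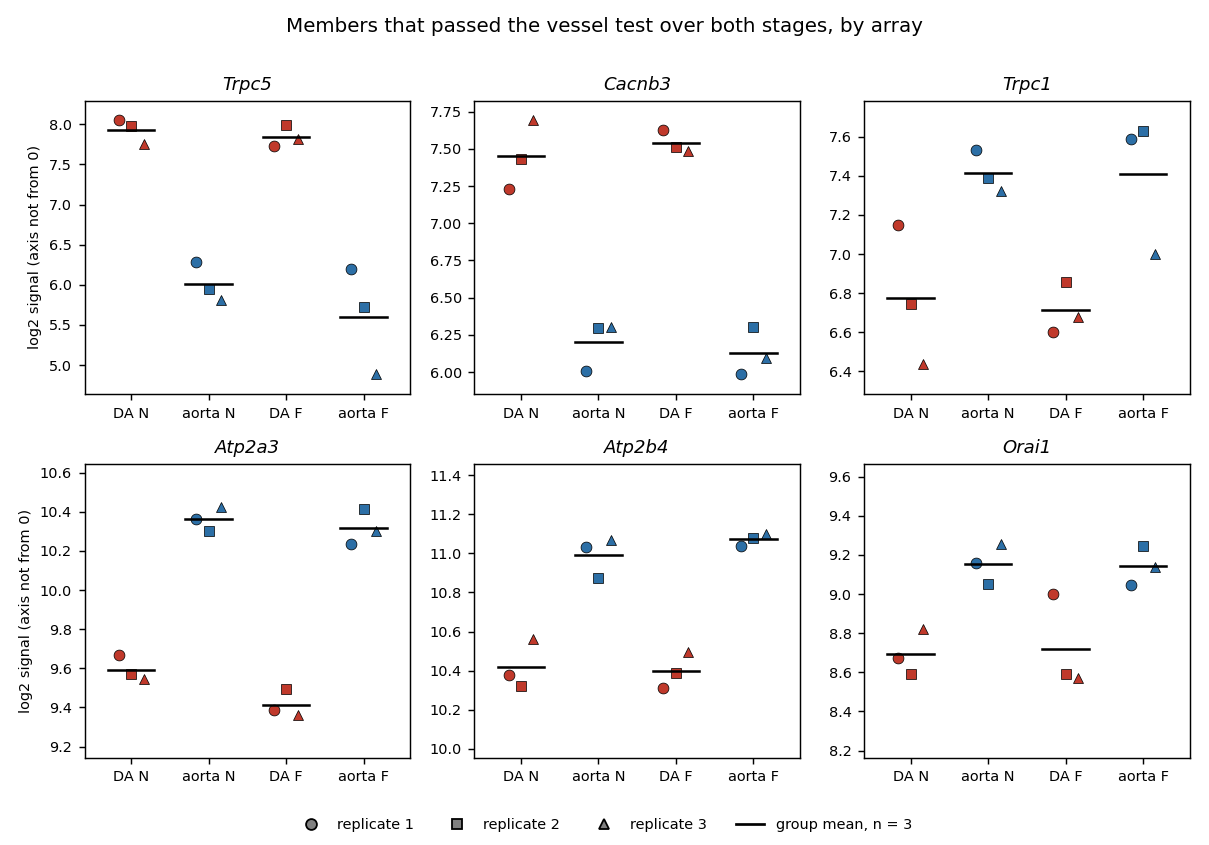
Log2 signal of the 6 genes that passed in the vessel comparison over both stages, for each array (symbols by replicate number, DA in red, aorta in blue) with the group mean (line, n = 3 each). DA arrays lie above aortic arrays for Trpc5 and Cacnb3 and below them for Atp2a3, Atp2b4 and Orai1, and Trpc1 overlaps only across stages.

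All 8 genes of the Orai, Stim and Itpr families lay above the spike on all 12 arrays, and 7 of the 8 had a log2 fold change below 0 over both stages. Orai1, the pore of the channel that refills the store, was the one that passed. Log2 signals of Orai1 (probe set 10761965) were 8.67, 8.59 and 8.82 in DA and 9.16, 9.05 and 9.26 in aortic ECs of the N group, and 9.0, 8.59 and 8.57 in DA and 9.05, 9.25 and 9.14 in aortic ECs of the F group. The highest DA array, replicate 1 of the F group, was just below the lowest aortic array. Over both stages the log2 fold change was -0.44 ± 0.10, or 1.36-fold lower in DA ECs (limma adjusted p = 0.0127). In N it was -0.46 (adjusted p = 0.123, or 0.0483 with the replicate block) and in F -0.42 (adjusted p = 0.143, or 0.0399 without replicate 1 of the DA in F).

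The paralogs of Orai1 did not pass without the block. Orai2 was the gene of this pathway with a fold change above 0, at 0.33 ± 0.13 (limma adjusted p = 0.177, or 0.0431 with the replicate block). Log2 signals of Orai2 were 6.61, 6.95 and 7.20 in DA and 6.58, 6.47 and 6.86 in aortic ECs of the N group, and 7.21, 6.82 and 7.07 in DA and 6.38, 6.76 and 6.84 in aortic ECs of the F group. The arrays of both vessels overlapped in each stage, although each DA array was above the aortic array of the same number. Orai3 had a log2 fold change of -0.17 ± 0.10 and an adjusted p of 0.406.

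Stim2, the sensor that responds to small losses of store calcium, had the higher mean of the 2 Stim probe sets. Log2 signals of Stim2 were 8.68, 8.70 and 8.60 in DA and 9.09, 8.94 and 8.81 in aortic ECs of the N group, and 8.52, 8.58 and 8.37 in DA and 8.96, 8.69 and 8.68 in aortic ECs of the F group. DA arrays were below all aortic arrays within each stage, and overlapped with them across stages. Its log2 fold change over both stages was -0.29 ± 0.09 (limma adjusted p = 0.0679, or 0.00973 with the replicate block). Stim1, which opens Orai1 after larger losses, had log2 signals of 7.96 to 8.19 in DA and 7.94 to 8.22 in aortic ECs and a log2 fold change of -0.07 ± 0.08 (95% interval -0.23 to 0.10). In F the arrays of Stim1 overlapped, and in N those of the DA lay below those of the aorta. Stimate, an endoplasmic reticulum protein that supports Stim1, and Trpc4ap, a protein named for binding to Trp channels, had log2 fold changes of 0.06 and -0.02, neither of which passed.

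The Itpr receptors release calcium from the store when inositol trisphosphate binds, and the 3 genes had fold changes of nearly the same size. Log2 signals of Itpr3 were 8.43, 8.31 and 8.39 in DA and 8.60, 8.53 and 8.61 in aortic ECs of the N group, and 8.32, 8.29 and 8.20 in DA and 8.50, 8.52 and 8.51 in aortic ECs of the F group. These arrays did not overlap between the vessels in either stage or across stages. Log2 signals of Itpr2 were 9.78, 9.56 and 9.52 in DA and 9.95, 9.75 and 9.82 in aortic ECs of the N group, and 9.70, 9.62 and 9.39 in DA and 9.97, 9.75 and 9.67 in aortic ECs of the F group. The arrays of Itpr2, which had the highest mean of the 3, overlapped in both stages. Itpr1 had log2 signals of 8.54 to 8.88 in DA and 8.79 to 9.06 in aortic ECs, and its arrays overlapped in F but not in N. The log2 fold changes over both stages were -0.24 ± 0.09 for Itpr1, -0.22 ± 0.09 for Itpr2 and -0.22 ± 0.07 for Itpr3. None of the 3 passed in limma (adjusted p = 0.133, 0.214 and 0.0823), and all 3 passed with the replicate block (0.0188, 0.0275 and 0.0233). The Ryr channels, the release channels of muscle, were close to the spike or below it. Ryr1, with the highest mean of them, had log2 signals of 4.72 to 4.98 in DA and 4.70 to 5.19 in aortic ECs, with a log2 fold change of -0.07 ± 0.10 (adjusted p = 0.824).

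**Figure D3:**
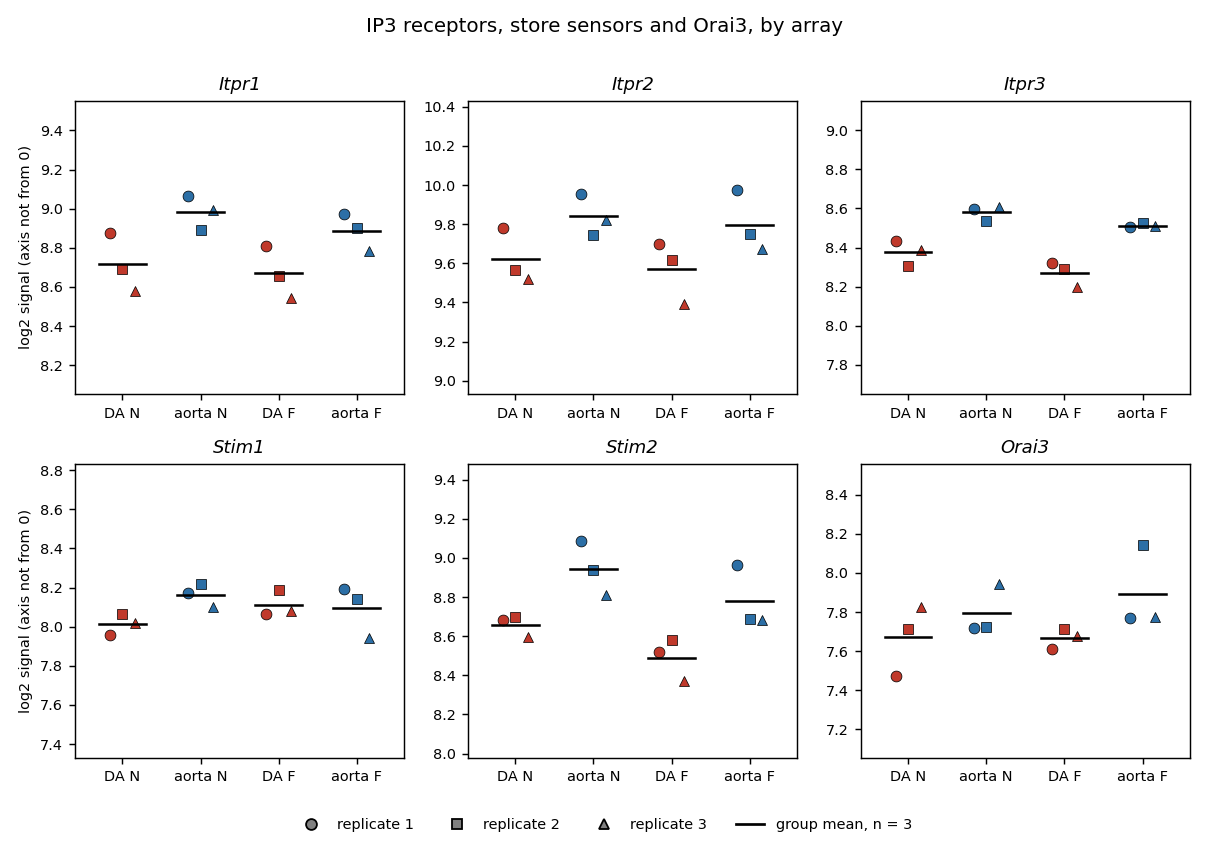
Log2 signal of the 3 Itpr receptors, the store sensors Stim1 and Stim2 and the channel Orai3 for each array (symbols by replicate number, DA in red, aorta in blue) with the group mean (line, n = 3 each). Every panel spans the same height on the log2 scale, and DA means lie below aortic means in each stage for all 6 genes except Stim1 in F.

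Cacnb3 stood apart from the other voltage-gated channel genes. It encodes a cytosolic subunit that binds the pore-forming subunit and helps to bring it to the cell surface. Log2 signals of Cacnb3 (probe set 10899023) were 7.23, 7.43 and 7.69 in DA and 6.01, 6.30 and 6.30 in aortic ECs of the N group, and 7.62, 7.51 and 7.49 in DA and 5.99, 6.30 and 6.09 in aortic ECs of the F group. DA and aortic arrays were separated by a wide gap, and the order of the replicates differed between stages. In N the log2 fold change was 1.25 ± 0.14 (2.38-fold, limma adjusted p = 0.000315) and 1.42 ± 0.14 in F (2.67-fold, adjusted p = 0.000104). Over both stages it was 1.33 ± 0.10, or 2.52-fold, with a 95% interval of 1.11 to 1.56.

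Of the 24 voltage-gated channel genes 16 were tested, and the 15 besides Cacnb3 had log2 fold changes between -0.11 and 0.31 over both stages, none of which passed. Cacna1g, a pore-forming subunit of T-type channels, had the highest mean of the pore-forming subunits. Log2 signals of Cacna1g were 7.15, 7.38 and 7.41 in DA and 7.25, 7.39 and 7.65 in aortic ECs of the N group, and 7.29, 7.32 and 7.20 in DA and 7.13, 7.48 and 7.49 in aortic ECs of the F group. The arrays overlapped, and the log2 fold change was -0.11 ± 0.10 (limma adjusted p = 0.71). Cacna1c, the pore of the L-type channel of smooth and cardiac muscle, was close to the spike, with means of 4.67 in DA and 4.36 in aortic ECs. The aortic mean was below the limit of 4.44, so that this gene was tested only through the DA arrays, and its difference is given as a description. Log2 signals of Cacna1c were 4.40, 4.62 and 4.85 in DA and 4.38, 4.33 and 4.61 in aortic ECs of the N group, and 4.49, 4.76 and 4.89 in DA and 4.25, 4.25 and 4.33 in aortic ECs of the F group. The vessels overlapped in N but not in F, DA arrays were above aortic arrays of the same number in all 6 pairs, and the log2 fold change was 0.31 ± 0.10. The summed smooth muscle markers were also higher in DA ECs in both stages, although of 12 tested 5 were higher and 2 lower. Their part in the Cacna1c difference was not tested. Cacna2d3, an extracellular auxiliary subunit, had log2 signals of 4.83 to 5.0 in DA and 4.49 to 4.81 in aortic ECs, without overlap, and did not pass (0.19 ± 0.08, adjusted p = 0.212). Cacnb1, the other beta subunit that was tested, had a log2 fold change of 0.11 ± 0.11 (adjusted p = 0.718), while Cacnb2 and Cacnb4 were below the limit for testing.

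Both kinds of calcium pump held 1 gene that was lower in DA ECs. Atp2a3 encodes SERCA3, a pump of the endoplasmic reticulum that is known from ECs and blood cells. Log2 signals of Atp2a3 (probe set 10735578) were 9.67, 9.57 and 9.54 in DA and 10.36, 10.30 and 10.42 in aortic ECs of the N group, and 9.39, 9.49 and 9.36 in DA and 10.23, 10.41 and 10.30 in aortic ECs of the F group. Every DA array was below every aortic array, by a gap wider than the range within either vessel. The log2 fold change was -0.77 ± 0.10 in N (1.7-fold lower, limma adjusted p = 0.00105) and -0.90 ± 0.10 in F (1.87-fold lower, adjusted p = 0.000273). The widely used pump Atp2a2 (SERCA2) had log2 signals of 9.64 to 10.05 in DA and 9.76 to 10.17 in aortic ECs, and its log2 fold change of -0.11 ± 0.10 did not pass (95% interval -0.33 to 0.10). Atp2a1, the pump of fast skeletal muscle, did not pass either (0.08 ± 0.10).

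Atp2b4 encodes a plasma-membrane calcium pump and had the highest mean of the 4 Atp2b probe sets. Log2 signals of Atp2b4 (probe set 10767723) were 10.38, 10.32 and 10.56 in DA and 11.03, 10.87 and 11.07 in aortic ECs of the N group, and 10.31, 10.39 and 10.50 in DA and 11.04, 11.08 and 11.10 in aortic ECs of the F group. No DA array reached the lowest aortic array. The log2 fold change was -0.57 ± 0.11 in N (1.49-fold lower, limma adjusted p = 0.0139) and -0.67 ± 0.11 in F (1.59-fold lower, adjusted p = 0.00386). In N it no longer passed without replicate 1 of the aorta in N (adjusted p = 0.0691), replicate 3 of the aorta in N (0.0592) or replicate 2 of the DA in N (0.0861).

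Atp2b1, the most widely expressed of these pumps, lay below 0 as well. Log2 signals of Atp2b1 were 8.03, 7.66 and 7.38 in DA and 8.33, 8.09 and 7.70 in aortic ECs of the N group, and 7.64, 7.55 and 7.16 in DA and 8.29, 7.79 and 7.71 in aortic ECs of the F group. The vessels overlapped in N but not in F, and in every group replicate 1 had the highest and replicate 3 the lowest signal. Its log2 fold change over both stages was -0.41 ± 0.16 (limma adjusted p = 0.163, or 0.00148 with the replicate block). Atp2b2 and Atp2b3, known mainly from nerve, had log2 fold changes of 0.03 and 0.13 and did not pass.

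When each DA array was set against the aortic array of its number and stage, 11 of the 46 genes were lower in DA ECs in all 6 pairs (23.9%, against 12.8% of all probe sets tested) and 6 were higher (13%, against 10%). The 11 were Atp2a3, Trpc1, Atp2b4, Orai1, Atp2b1, Trpm7, Stim2, Itpr1, Itpr2, Itpr3 and Orai3, and the 6 were Trpc5, Cacnb3, Orai2, Cacna1c, Cacna2d3 and Trpv3. These counts are a description and come from the same arrays as the tests above, and Cacna1c was tested only through the DA arrays.

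**Figure D4:**
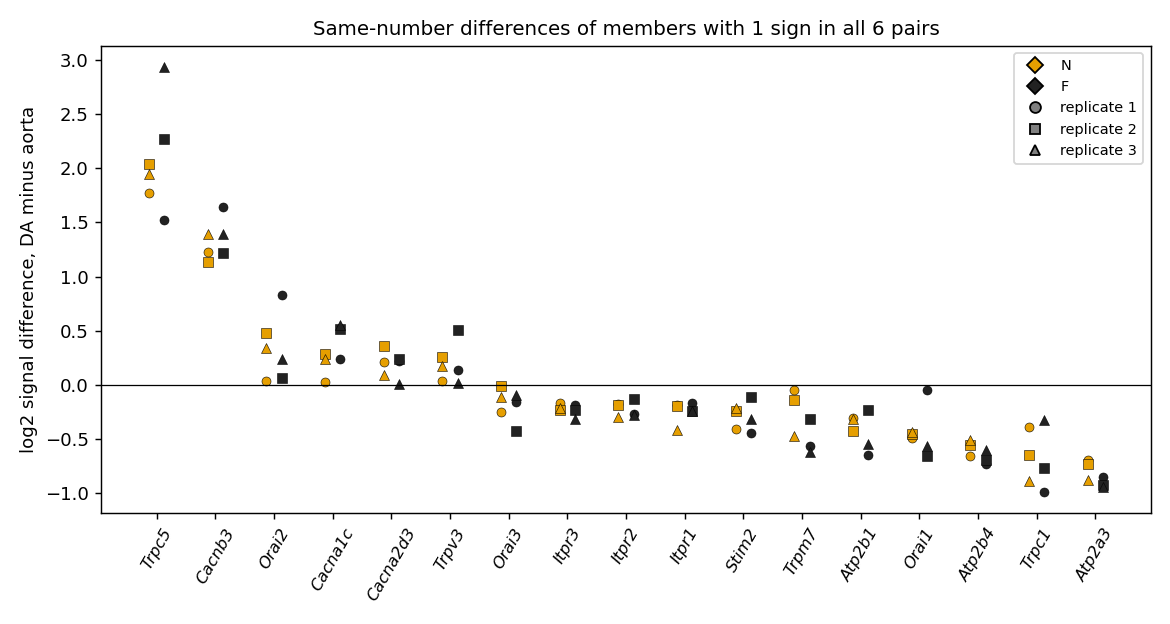
Difference in log2 signal between the DA array and the aortic array of the same replicate number, for the 17 genes with the same sign in all 6 pairs (N in orange, F in black, symbols by replicate number). Trpc5 and Cacnb3 have differences above 1 in all 6 pairs. Pairs close to 0 occur in Orai1, Orai2, Orai3, Trpm7, Cacna1c, Cacna2d3 and Trpv3.

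The comparison of N with F asked which of these genes changed within 30 min of birth. None of the 46 genes passed in DA ECs, in aortic ECs or in the test of whether the vessel difference changed between the stages. At an unadjusted p under 0.05 in limma the count was also 0 of 46 in each, against 2.01%, 1.38% and 0.931% of all probe sets tested, and after adjustment 0.00535% of all probe sets passed in DA ECs and 0% in the other comparisons. The smallest unadjusted p was 0.109 in DA ECs, 0.0576 in aortic ECs and 0.163 for the change of the vessel difference. The median log2 fold change of the 46 genes was 0.00 in DA ECs and -0.01 in aortic ECs, against 0.02 and 0.00 over all probe sets tested.

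The largest stage differences were small beside the vessel differences of Trpc5 and Cacnb3. Trpc5 in N against F had a log2 fold change of 0.41 ± 0.26 in aortic ECs, with a 95% interval of -0.16 to 0.98, and of 0.08 ± 0.26 in DA ECs. Its vessel difference was 0.32 smaller in N than in F on the log2 scale, with an interval of -1.13 to 0.48 for N minus F. Trpc7, a Trp channel near the limit for testing, had -0.29 ± 0.17 in DA and -0.35 ± 0.17 in aortic ECs. Atp2a3 had 0.18 ± 0.10 in DA ECs (interval -0.05 to 0.41) and Cacnb3 had -0.09 ± 0.14 (interval -0.41 to 0.23).

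Genes that act with these channels and pumps were taken from 5 lists with 112 genes, of which 87 were tested. Over both stages none of the 87 was higher in DA ECs, against 3.19% of all probe sets, and 5 were lower (5.75%, against 4.93%). The replicate block called 2 higher and 9 lower of the 87, against 7.71% and 10.1% of all probe sets. Slc8a1, the sodium-calcium exchanger that removes calcium across the plasma membrane, was the one called of 12 exchanger and mitochondrial uptake genes. Log2 signals of Slc8a1 were 7.51, 7.26 and 7.21 in DA and 8.22, 8.10 and 7.86 in aortic ECs of the N group, and 7.51, 7.40 and 7.28 in DA and 8.20, 8.03 and 7.94 in aortic ECs of the F group. The arrays of both vessels did not overlap, and the log2 fold change was -0.70 ± 0.10 (limma adjusted p = 0.000484).

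Of 16 genes of phospholipase C and inositol phosphate metabolism 2 were lower. Plcg2, a phospholipase C that receptors activate through tyrosine kinases, had the larger difference. Log2 signals of Plcg2 were 8.01, 7.41 and 7.74 in DA and 8.91, 8.57 and 8.56 in aortic ECs of the N group, and 7.73, 7.60 and 7.52 in DA and 8.84, 8.63 and 8.46 in aortic ECs of the F group. Again no DA array reached an aortic array, with a log2 fold change of -1.0 ± 0.12 (limma adjusted p = 0.000153). Plcb1, activated through G proteins, had -0.50 ± 0.12 (adjusted p = 0.0247). Of 22 genes for calmodulin, calcineurin, NFAT factors, calmodulin kinases and Nos3, those lower were Nfatc2, a transcription factor released by calcineurin (-0.65 ± 0.14, adjusted p = 0.0124), and Camk2d, a calmodulin-dependent kinase (-0.27 ± 0.08, adjusted p = 0.0431). None passed among 24 store proteins and regulators or among 13 other calcium-permeable channels.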

How the data were processed

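The authors hybridized RNA of sorted ECs to Rat Gene 1.0 ST arrays and deposited 1 log2 signal per probe set and array. How these were summarised and normalized was not given in the sources used here, and they were used as deposited. Of 26468 probe sets 15307 had 1 gene symbol in the platform annotation, 323 had several and 10838 had none. Groups came from the sample labels. Precision is limited by there being 3 arrays per group.

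The 12 arrays entered 1 fit in limma (version 3.58.1, R 4.3.3; lmFit and eBayes) with a mean for each group, and p-values were adjusted by Benjamini-Hochberg over the 18690 probe sets whose mean reached that of the lys spike (7777 were left out). The contrasts were DA against aorta at each stage and across stages, N against F within each vessel, and whether the vessel contrast changed with stage. The script was tested on simulated data.

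Replicate numbers were checked for pairing. Deviations from the group means correlated across probe sets at 0.539 to 0.82 among the arrays numbered 1, 0.102 to 0.301 among those numbered 2 and 0.393 to 0.735 among those numbered 3, whereas arrays of unlike number gave -0.738 to 0.368. The data therefore pair the arrays numbered 1 and those numbered 3, whereas the range for number 2 lay within that of unlike numbers. The labels do not say what the numbers stand for, and the replicate block was an alternative fit. Other alternatives were the filter on dim probe sets, quantile normalization, intensity-trended robust variances, fits with only the arrays compared, the methods' t-test and leaving out arrays.

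Genes were named when they passed in a contrast, had the highest mean of their family or were paralogs of a gene that passed. Genes that passed only with the block, and Trpc6 and Cacna2d3, were named after their values were seen. Cacna1e, Trpm4, Trpv3, Stim1, Stimate and Trpc4ap were also named, outside these rules. The gene set and the lists were chosen with earlier results of these data known. Upstream sequences are from RefSeq (GRCr8).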

Additional observations from a re-analysis of the deposited data

How the results depend on the processing

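When replicate number was a block, the genes called in DA against aortic ECs were 4 higher and 10 lower over both stages, 4 lower in N and 5 lower in F. Cacna1c, tested only through the DA arrays, was among those higher over both stages. Every gene called without the block was also called with it. The methods' t-test after Benjamini-Hochberg called 0 higher and 1 lower in N and 1 higher and 1 lower in F. Unadjusted with a fold of at least 2, it called 2 higher and 0 lower in N and the same in F. After Benjamini-Hochberg it called 20 higher and 24 lower in N and 29 higher and 38 lower in F among all probe sets. With only the 6 arrays of a comparison in the fit, 1 was lower in N. With no filter on dim probe sets, Trpc6 was added to the genes lower over both stages (5 in all).

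Leaving out arrays, singly or all 4 of a replicate number, gave 0 to 2 higher and 0 to 3 lower in N, 1 to 2 higher and 0 to 3 lower in F, and 2 to 3 higher and 1 to 5 lower over both stages. Among all probe sets the same fits called 32 to 233 higher and 32 to 350 lower in N, 60 to 289 higher and 49 to 477 lower in F, and 152 to 558 higher and 210 to 951 lower over both stages. The counts for N against F in either vessel and for the change of the vessel contrast stayed at 0 to 0. Leaving out a whole replicate number was added after the spike was seen to differ between the numbers. Without replicate 2 Trpc5 had an adjusted p of 0.189 in N and 0.0868 in F, Atp2a3 of 0.165 and 0.0887, Atp2b4 of 0.468 and 0.26, and Cacnb3 of 0.0761 in N. The log2 fold changes in N and F were then 1.86 and 2.23 for Trpc5, -0.79 and -0.89 for Atp2a3 and -0.58 and -0.66 for Atp2b4, and 1.31 in N for Cacnb3. The lowest counts among all probe sets given above are from this fit. Over both stages Atp2b4 (0.0546), Trpc1 (0.266) and Orai1 (0.371) then no longer passed, and without replicate 3 Orai1 did not either (0.125). Trpc5, Cacnb3 and Atp2a3 passed over both stages in all 3 of these fits. Atp2b4 also did not pass without replicate 1 (0.154 in N and 0.0586 in F) or, in N, without replicate 3 (0.0845).

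Log2 fold changes under the alternatives were followed for the 6 genes that passed over both stages. None of their log2 fold changes of DA against aortic ECs changed sign. Their values of N against F or of the change of the vessel contrast changed sign in 32 cases, and none of these passed. Under quantile normalization Atp2b4 in N against F in DA ECs was -0.025. When arrays were left out, N against F in DA ECs ranged over -0.051 to 0.069 for Atp2b4, -0.24 to 0.061 for Cacnb3, -0.037 to 0.17 for Trpc5, -0.16 to 0.13 for Orai1 and -0.18 to 0.23 for Trpc1. In aortic ECs it ranged over -0.042 to 0.12 for Orai1 and -0.19 to 0.13 for Trpc1. The change of the vessel contrast ranged over -0.62 to 0.034 for Trpc5, -0.15 to 0.17 for Orai1 and -0.22 to 0.36 for Trpc1. No gene of the set had another probe set with its symbol, so that alternative was not run. The lys spike differed between replicate numbers and, most in replicate 1, between the vessels. Of the 46 tested genes 26 lay below it on at least 1 array, where differences are least certain.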
